A study of Mus musculus with 6 samples.

Results

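The Zbtb genes encode transcription factors named for a zinc finger and BTB domain. Of 19940 genes by Ensembl ID in the authors' deposited table, 38 IDs carried a symbol that begins with Zbtb and a digit. They stood for 37 symbols, because Zbtb20 was listed under a pair of IDs. Zbtb8os was taken in by its symbol although it lies opposite Zbtb8a and encodes archease, a cofactor of the tRNA ligase, and no zinc finger factor. Zbtb14, Zbtb18 and Zbtb21 stand in the table under the older symbols Zfp161, Zfp238 and Zfp295, and were described with other relatives. Zbtb11 was not analysed here.

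RNA was sequenced from hand-picked pancreatic islets of C57BL6/J mice, with 3 samples of pregnant mice, taken at gestational day 14.5, and 3 of their nonpregnant littermates, whose ages are not given in the sources used here. The submitters' design text counts 5 animals in each group, and no label says whether a sample is 1 animal. The table holds 1 mean read count per gene and group, so the spread between libraries is unknown. Calls of a difference rest on the authors' own test, and what spread its p-values measure is not known. The authors' means summed to 87654449 reads in the pregnant group and 84493872 reads in the nonpregnant group. The 10 beta cell markers, led by the insulin genes Ins2 and Ins1, took 21.8% of these sums in pregnant and 18.6% in nonpregnant islets, and 2 of the 10 rose (Ins1 and Glp1r) and 1 fell (Slc30a8). In whole islets, fewer cells of a type and less RNA per cell cannot be told apart.

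In these proteins the BTB domain, near the start of the chain, pairs one molecule with another and recruits corepressors such as NCOR and BCOR with histone deacetylases. The C2H2 zinc fingers, near the end, bind DNA. Many members are repressors that set cell identity in blood, brain and liver. In the islet, mouse Zbtb20 is known to be needed in beta cells for normal insulin secretion and to repress Fbp1, a gene of gluconeogenesis.

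The upstream bases of genes with lower reads in pregnant islets are shown first, because these genes carry the comparison below. RefSeq windows on GRCm38.p6 were at hand for 3 of the 5 genes that fell, and each line gives the 250 bases before a start site on the gene's own strand. The windows are chr9:31030394-31030643 on the plus strand for Zbtb44, chr10:4388109-4388358 on the minus strand for Zbtb2 and chr16:43247034-43247283 on the plus strand for Zbtb20. Capitals mark the GC box GGGCGG or its reverse complement CCGCCC.
Zbtb44: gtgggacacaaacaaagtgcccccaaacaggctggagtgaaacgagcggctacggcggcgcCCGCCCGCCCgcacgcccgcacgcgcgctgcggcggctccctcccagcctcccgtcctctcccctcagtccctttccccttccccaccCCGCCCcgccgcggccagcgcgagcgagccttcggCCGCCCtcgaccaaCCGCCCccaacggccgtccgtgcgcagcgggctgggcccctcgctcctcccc
Zbtb2: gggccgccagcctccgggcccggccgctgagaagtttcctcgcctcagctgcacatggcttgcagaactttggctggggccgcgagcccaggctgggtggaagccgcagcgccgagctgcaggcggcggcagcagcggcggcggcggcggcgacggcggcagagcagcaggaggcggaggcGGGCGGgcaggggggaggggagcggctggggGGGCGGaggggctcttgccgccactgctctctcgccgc
Zbtb20: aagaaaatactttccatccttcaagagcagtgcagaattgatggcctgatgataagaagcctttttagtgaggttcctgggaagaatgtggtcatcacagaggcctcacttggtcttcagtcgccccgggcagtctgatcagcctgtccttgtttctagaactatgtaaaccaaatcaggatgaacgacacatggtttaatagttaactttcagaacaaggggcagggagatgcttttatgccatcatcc
Zbtb44 held 5 GC boxes, counting overlapping matches, with 33 CpG dinucleotides and a GC content of 76.0%. Zbtb2 held 2 GC boxes, 28 CpG dinucleotides and a GC content of 77.2%. The Zbtb20 window, at a start site inside the long gene, held 0 GC boxes, 3 CpG dinucleotides and a GC content of 44.8%. These 3 genes all fell, so the windows of genes that fell were not of one kind.

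Windows were at hand for 32 of the 37 symbols, with 39 windows in all. For 33 of the 39, bases just after the start were found in an annotated transcript of the gene. Some genes had several windows, and those of Zbtb17, of Zbtb3 and of Zbtb25 overlap, so the 39 are not all separate promoters. A GC box on either strand was present in 25 of the 39 (64.1%), against 57.3% of 11731 windows of genes with at least 100 mean reads and 32.7% of all 32851 windows. The letters TTCNNNGAA, which read the same on both strands and are the core of STAT5 binding sites, were in 0 of the 39 windows, against 6.07% of the windows of genes with at least 100 mean reads and 7.02% of all windows. STAT5 carries the prolactin signal in beta cells. An absent match says only that these letters are not in the window. So few windows, some of them overlapping, cannot be told from the shares above.

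Of the 38 Zbtb IDs, 5 fell, 1 rose and 32 did not pass in pregnant islets, by the authors' deposited table and an adjusted p below 0.05. Over all genes in that table, 4.15% were lower, 7.57% were higher and 11.7% passed in either direction. Where genes had 100 or more mean reads over both groups, these shares were 6.18%, 10.5% and 16.7%. The members that fell were Zbtb48, Zbtb2, Zbtb44, Zbtb40 and Zbtb20, with pregnant levels of 0.72 to 0.82 of the nonpregnant ones in the authors' deposited table. Zbtb7c was the member that rose, at 1.36-fold.

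**Figure D1:**
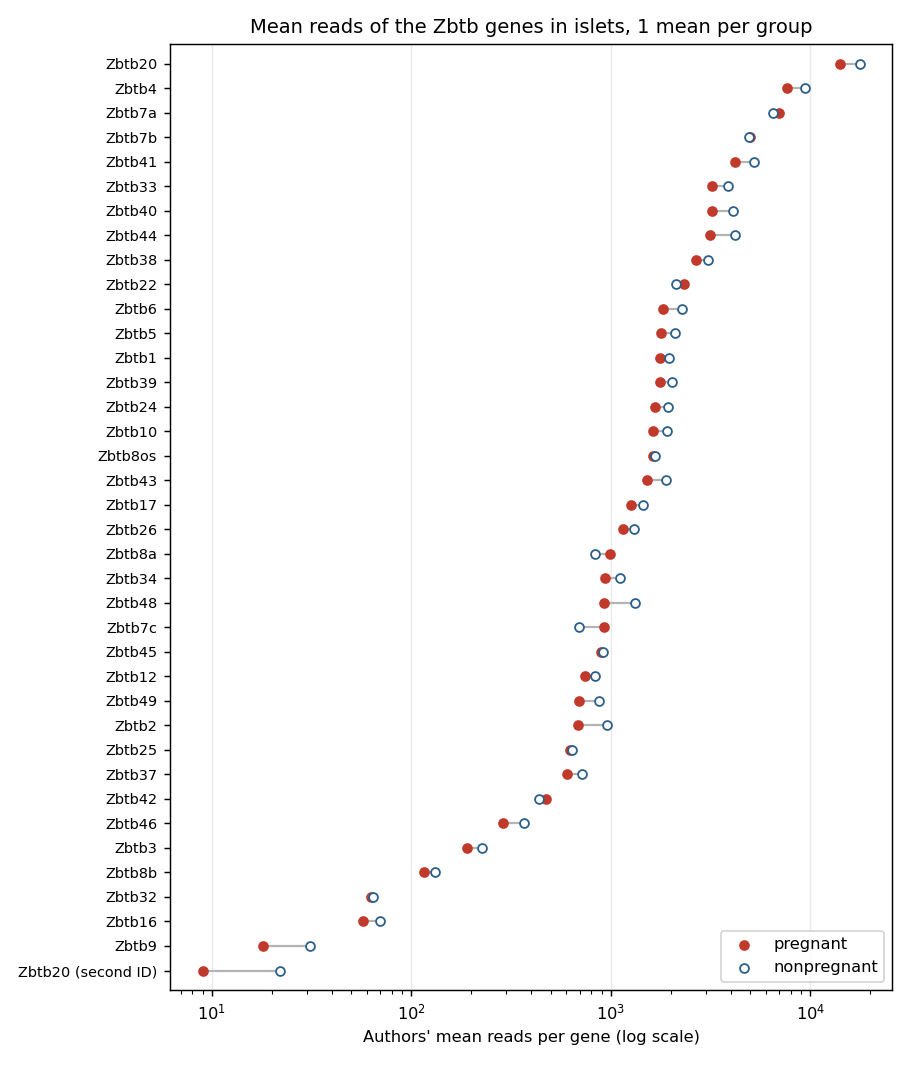
Authors' mean reads per gene on a log axis for the 38 Zbtb IDs, with filled points for the pregnant group and open points for the nonpregnant group, 1 mean each and no error bars. Zbtb20 stands highest, at 14154 pregnant and 17683 nonpregnant mean reads, and its second ID lowest, at 9 pregnant and 22 nonpregnant mean reads.

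Most of the members lay a little lower in pregnant islets. In the deposited values of the authors 29 of 38 had a log2 ratio of pregnant over nonpregnant below 0 (76.3%), against 51.8% of all genes. The members' median log2 ratio was -0.20, with quartiles of -0.28 and -0.03, whereas the median over all genes was -0.02. For the 34 members with at least 100 mean reads the median log2 ratio was -0.18, and 26 lay below 0, against a median of -0.01 and 51.5% below 0 among all genes with at least 100 mean reads. At an unadjusted p under 0.05 in the authors' deposited table, 9 members were lower and 2 higher, against 9.78% and 12.4% of all genes. All members together took 0.0887% of the summed mean reads in pregnant and 0.106% in nonpregnant islets.

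**Figure D2:**
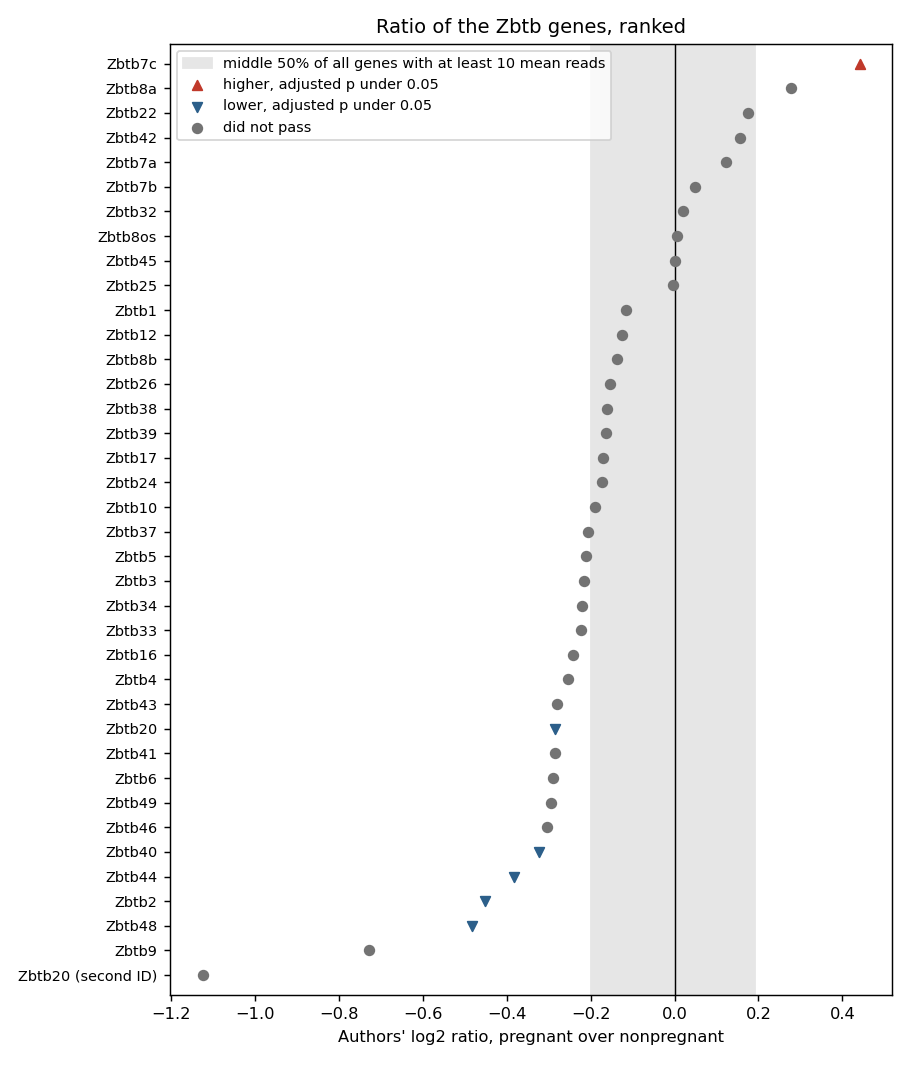
Authors' log2 ratio of pregnant over nonpregnant for each Zbtb ID, ranked, with triangles for members past an adjusted p under 0.05 and circles for those that did not pass. The grey band is the middle 50% of all genes with at least 10 mean reads, and the 5 members that fell lie left of it, from -0.48 for Zbtb48 to -0.28 for Zbtb20.

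Zbtb48 encodes TZAP, which in human cells binds telomeres and trims those that grow too long. Its authors' mean was 925 reads in pregnant and 1325 reads in nonpregnant islets. The authors' deposited table gave a log2 ratio of -0.48 for Zbtb48 (adjusted p = 0.012). The gene (ENSMUSG00000028952) is at 152019774 to 152027671 of chromosome 4 on the GRCm38 minus strand. Zbtb40, which is linked to bone density in humans, lies on the same chromosome and strand at 136979732 to 137048801 (ENSMUSG00000060862). Its authors' mean was 3204 reads in pregnant and 4109 reads in nonpregnant islets, a log2 ratio of -0.32 in the authors' deposited table (adjusted p = 0.0278). Both genes stood in a list of 3 genes with roles in genome maintenance or telomere binding. The third, Zbtb10, whose human protein binds telomere repeats and represses SP genes, did not pass. It had an authors' mean of 1637 reads in pregnant and 1915 reads in nonpregnant islets (adjusted p = 0.35 in the authors' deposited table). Thus 2 of these 3 genes fell, against 4.15% lower among all genes, in a list drawn up with earlier results known. So few genes cannot stand for the role as a whole.

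Zbtb2, whose human protein represses CDKN1A and the p53 pathway, had an authors' mean of 686 reads in pregnant and 963 reads in nonpregnant islets. Its log2 ratio of -0.45 in the authors' deposited table had the smallest adjusted p of the 38 members (0.00869). Zbtb2 (ENSMUSG00000075327) is on chromosome 10, minus strand, at 4367075 to 4388108. Its upstream window is the GC-rich one with 2 GC boxes shown above. Zbtb44 (ENSMUSG00000047412) lies on the plus strand of chromosome 9 at 31030644 to 31075885. The authors' mean of Zbtb44 was 3147 reads in pregnant and 4205 reads in nonpregnant islets. The log2 ratio of Zbtb44 was -0.38 in the authors' deposited table (adjusted p = 0.0282).

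Zbtb20 had the most reads of the family. The main ID (ENSMUSG00000022708), on the plus strand of chromosome 16 at 42875881 to 43642602, had an authors' mean of 14154 reads in pregnant and 17683 reads in nonpregnant islets. The log2 ratio of Zbtb20 was -0.28 in the authors' deposited table, with an adjusted p of 0.045, close to the threshold. The second ID, ENSMUSG00000036279, had authors' means of 9 reads in pregnant and 22 reads in nonpregnant islets and missed the threshold (log2 ratio -1.12, adjusted p = 0.292 in the authors' deposited table). That ID was not found in the GENCODE annotation used here, so no place or length is given for it. Fbp1, which Zbtb20 represses in mouse beta cells, also fell, to an authors' mean of 360 reads in pregnant islets against 567 in nonpregnant islets. Its ratio was 0.65 in the authors' deposited table (adjusted p = 0.00115). Afp, a target that Zbtb20 represses in liver, had an authors' mean of 1 read in each group.

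Zbtb7c, the member that rose, encodes Kr-pok, a repressor that acts on Cdkn1a through p53. It lies on the plus strand of chromosome 18 (ENSMUSG00000044646). The authors' mean of Zbtb7c was 922 reads in pregnant and 696 reads in nonpregnant islets. The log2 ratio of Zbtb7c was 0.44 in the authors' deposited table (adjusted p = 0.0118). Its closest relatives did not pass. Zbtb7a, also called LRF, a repressor of glycolysis genes and a regulator of blood cell fate, had authors' means of 6936 reads in pregnant and 6526 reads in nonpregnant islets (log2 ratio 0.12, adjusted p = 0.773 in the authors' deposited table). Zbtb7b, or ThPOK, the factor that sets the CD4 fate of T cells, had 4973 reads in pregnant and 4925 reads in nonpregnant islets as authors' means (log2 ratio 0.05, adjusted p = 0.98 in the authors' deposited table). The 3 Zbtb7 genes thus all had ratios above 0 as deposited, and that of Zbtb7b was below 0, at -0.04, when means were scaled to the summed mean reads. Whether Zbtb7c differed from Zbtb7a and Zbtb7b in its response was not tested.

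**Figure D3:**
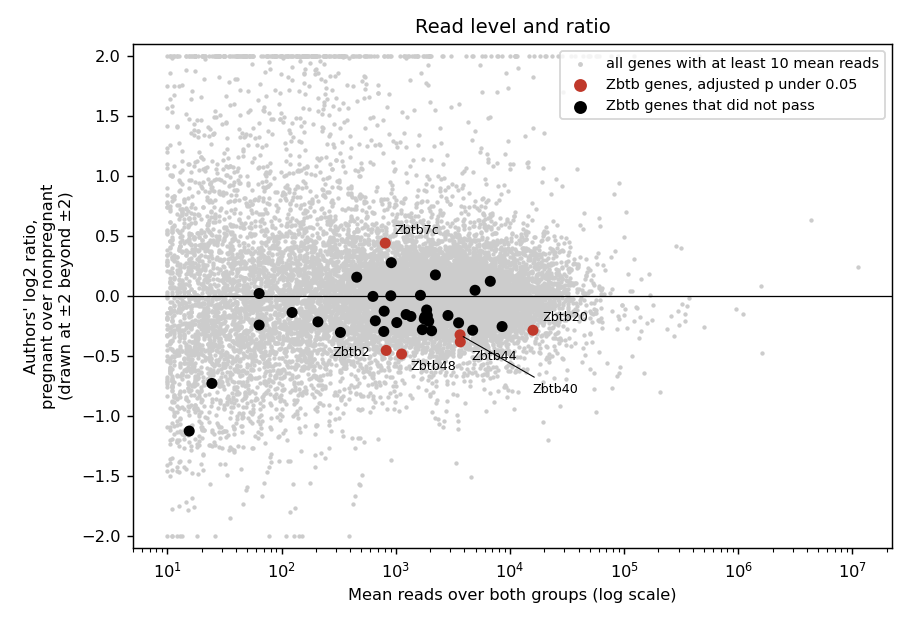
Authors' log2 ratio of pregnant over nonpregnant against mean reads over both groups (log axis), for all genes with at least 10 mean reads (grey) and the Zbtb IDs (red where the adjusted p is under 0.05, black otherwise). The 6 members called lie inside the cloud of all genes at their read level, and the 2 IDs with the lowest ratios are also those with the fewest reads.

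The remaining regulators of metabolism and growth did not pass. Zbtb17, or Miz-1, a partner of Myc that activates Cdkn1a and Cdkn2b, had authors' means of 1261 reads in pregnant and 1454 reads in nonpregnant islets (adjusted p = 0.463 in the authors' deposited table). Zbtb5, whose human protein represses CDKN1A, had 1778 reads in pregnant and 2108 reads in nonpregnant islets (adjusted p = 0.271 in the authors' deposited table). The targets named here did not pass either. Cdkn1a, a cell cycle inhibitor, had authors' means of 2029 reads in pregnant and 2448 reads in nonpregnant islets (adjusted p = 0.624 in the authors' deposited table). Cdkn2b, another inhibitor, had 736 reads in pregnant and 512 reads in nonpregnant islets (adjusted p = 0.0925 in the authors' deposited table).

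The 3 readers of methylated DNA all had ratios below 0 without passing. This direction was that of most of the family, with 29 of 38 (76.3%) below 0. Zbtb33, or Kaiso, had authors' means of 3234 reads in pregnant and 3867 reads in nonpregnant islets (log2 ratio -0.22, adjusted p = 0.259 in the authors' deposited table). Zbtb4 had 7685 reads in pregnant and 9390 reads in nonpregnant islets (log2 ratio -0.25, adjusted p = 0.0952 in the authors' deposited table). Zbtb38 had 2671 reads in pregnant and 3062 reads in nonpregnant islets (log2 ratio -0.16, adjusted p = 0.436 in the authors' deposited table). Zbtb4 was the only one of these 3 with an unadjusted p under 0.05 (0.0144 in the authors' deposited table).

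Of 7 members known from lymphoid and myeloid cells, 0 passed in the authors' deposited table, against 11.7% of all genes, and 0 had an unadjusted p under 0.05, against 22.2%. So few genes cannot be told from those shares. Zbtb46, a factor of classical dendritic cells and endothelium, had authors' means of 289 reads in pregnant and 366 reads in nonpregnant islets (log2 ratio -0.30, adjusted p = 0.294 in the authors' deposited table). Zbtb16, or PLZF, the factor of innate-like T cells and germ line stem cells, had 57 reads in pregnant and 70 reads in nonpregnant islets (adjusted p = 0.968 in the authors' deposited table). Zbtb32, a repressor in activated lymphocytes, had 63 reads in pregnant and 64 reads in nonpregnant islets. Both were near the low end of the family by reads. Zbtb1, needed for lymphoid development, had 1767 reads in pregnant and 1960 reads in nonpregnant islets. Zbtb25 had 623 reads in pregnant and 639 reads in nonpregnant islets. The 7 measured markers of macrophages and dendritic cells summed to 12449 authors' mean reads in pregnant and 13190 in nonpregnant islets. Most of these reads were from Cd74, with 10246 in pregnant and 11091 in nonpregnant islets, and 4 of the 7 had log2 ratios above 0. The sum of 5 endothelial markers was 25118 in pregnant and 25271 in nonpregnant islets, and that of 7 lymphocyte markers was 1569 in pregnant and 1531 in nonpregnant islets. Of these 19 markers, 0 passed in the authors' deposited table and 0 had an unadjusted p under 0.05. The T cell markers Cd3e and Cd3d were near 0, with 2 reads in pregnant and 5 in nonpregnant islets for Cd3e and 4 reads in pregnant and 3 in nonpregnant islets for Cd3d.

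Zbtb24, mutated in a human syndrome of immunodeficiency and unstable centromeres, activates Cdca7. Its authors' mean was 1670 reads in pregnant and 1930 reads in nonpregnant islets, and it did not pass (adjusted p = 0.424 in the authors' deposited table). Cdca7 rose 2.05-fold in the authors' deposited table, with authors' means of 105 reads in pregnant and 52 reads in nonpregnant islets (adjusted p = 0.0074). Its partner Hells, a chromatin remodeller, rose 3.38-fold in the authors' deposited table. In the same comparison 6 of 6 markers of dividing cells rose, from a list that summed to 7922 authors' mean reads in pregnant and 1474 in nonpregnant islets. Their part in these values was not tested.

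The 2 genes listed as neural or glial repressors had deposited log2 ratios at or above 0, where 51.8% of all genes lay below 0. A list of 2 genes cannot be told from that share. Zbtb42, a close relative of Zbtb18, had authors' means of 474 reads in pregnant and 436 reads in nonpregnant islets (log2 ratio 0.16, adjusted p = 0.678 in the authors' deposited table). Zbtb45, a regulator of glial development, had 895 reads in pregnant and 915 reads in nonpregnant islets. Its deposited log2 ratio was 0.002 and was below 0 under every other scaling tried, as were those of Zbtb32 and Zbtb8os. Zbtb8os had 1627 reads in pregnant and 1662 reads in nonpregnant islets.

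Among 15 members without a fixed role, 1 fell (Zbtb44), 0 rose and 13 had ratios below 0, against 4.15% lower, 7.57% higher and 51.8% below 0 among all genes. The 1 of 15 that fell (6.67%) is near the share over all genes. Zbtb6, Zbtb43 and Zbtb49 had unadjusted p-values under 0.05 on the lower side (0.0133, 0.0358 and 0.0275 in the authors' deposited table) and log2 ratios of -0.29, -0.28 and -0.29. Zbtb6 had 1830 authors' mean reads in pregnant and 2289 in nonpregnant islets. Zbtb43 had 1522 reads in pregnant and 1895 reads in nonpregnant islets, and Zbtb49 had 696 reads in pregnant and 875 reads in nonpregnant islets. Zbtb8a was on the higher side, with 991 reads in pregnant and 837 reads in nonpregnant islets (log2 ratio 0.28, unadjusted p = 0.0313, adjusted p = 0.165 in the authors' deposited table). Zbtb41 had a ratio as low as that of Zbtb20 and did not pass, with 4199 reads in pregnant and 5234 reads in nonpregnant islets (log2 ratio -0.28, adjusted p = 0.335 in the authors' deposited table). Of these 5 genes, Zbtb8a alone had a ratio above 0. Zbtb22, from the MHC region of chromosome 17, had 2332 reads in pregnant and 2117 reads in nonpregnant islets. Zbtb12, from the same region, had 747 reads in pregnant and 835 reads in nonpregnant islets. Zbtb26 had 1152 reads in pregnant and 1312 reads in nonpregnant islets, and Zbtb39 had 1761 reads in pregnant and 2020 reads in nonpregnant islets. Zbtb34 had 931 reads in pregnant and 1110 reads in nonpregnant islets, and Zbtb37 had 607 reads in pregnant and 717 reads in nonpregnant islets. Fewer reads were found for Zbtb3, with 190 reads in pregnant and 226 reads in nonpregnant islets, and Zbtb8b, with 116 reads in pregnant and 131 reads in nonpregnant islets. All of these 7 genes from Zbtb12 to Zbtb8b had lower means in pregnant islets without passing.

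Several members are neighbours in the genome, and their ratios are given side by side as deposited. Zbtb1 and Zbtb25 start head to head on chromosome 12, with 663 bases between them, and had log2 ratios of -0.12 and -0.003. Zbtb34 and Zbtb43 lie in tandem on chromosome 2, with log2 ratios of -0.22 and -0.28. Zbtb6 and Zbtb26 overlap on the same strand of chromosome 2, where they share 449 exonic bases, and had log2 ratios of -0.29 and -0.15. Reads in a shared stretch cannot be assigned to one of the pair. Zbtb8os and Zbtb8a share 264 exonic bases on opposite strands of chromosome 4, which is 11.4% of the exon length of Zbtb8a, and Zbtb8b follows them. Their log2 ratios were 0.006, 0.28 and -0.14. Zbtb9, at 18 reads in pregnant and 31 reads in nonpregnant islets, shares 84.4% of its exon length with Ggnbp1 on the same strand, so its count is uncertain. Zbtb37 shares 15.6% of its exon length with Serpinc1 on the opposite strand, and the sources used here do not say whether counting used strand. Of the 6 members called, Zbtb20 overlaps an antisense gene over 0.338% of its exon length and a miRNA over 0.27%, and the other 5 share no exonic base with another annotated gene.

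Levels were compared between members per length, as authors' mean reads per kilobase of annotated exon and per 1000000 summed mean reads. By this measure Zbtb7a ranked first in pregnant islets, at 11.6, and second in nonpregnant islets, at 11.3. Zbtb4 had 10.8 in pregnant and 13.7 in nonpregnant islets. Zbtb7b had 10.1 in pregnant and 10.4 in nonpregnant islets, and Zbtb22 had 9.95 in pregnant and 9.37 in nonpregnant islets. These 4 genes headed the order in both groups. Zbtb20, first by reads, was seventh per length in both groups, at 5.25 in pregnant and 6.81 in nonpregnant islets, over an annotated exon length of 30730 bases that sums all its isoforms. Zbtb48 stood at rank 19 in pregnant islets, with 3.30, and at rank 10 in nonpregnant islets, with 4.90. The lowest were Zbtb16, at 0.123 in pregnant and 0.157 in nonpregnant islets, and Zbtb9, at 0.0590 in pregnant and 0.105 in nonpregnant islets. The level of Zbtb9 is uncertain, because it shares 84.4% of its exon length with Ggnbp1 on the same strand. Without a spread between libraries, neighbours in this order cannot be told apart.

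BTB zinc finger genes under other symbols gave a median log2 ratio of -0.08 over 12 measured genes in the authors' deposited table. Among them 9 lay below 0 (75%), a share like the 76.3% of the Zbtb IDs, against 51.8% of all genes. Of the 12 relatives, 0 passed, while 1 was higher and 1 lower at an unadjusted p under 0.05. These calls are near the shares over all genes (11.7% passed, and 12.4% higher and 9.78% lower unadjusted). Bcl6, the repressor of germinal centre B cells, had authors' means of 457 reads in pregnant and 308 reads in nonpregnant islets (log2 ratio 0.60, adjusted p = 0.0741 in the authors' deposited table). Zbtb21, listed as Zfp295, had 2264 reads in pregnant and 2737 reads in nonpregnant islets (adjusted p = 0.171 in the authors' deposited table). Zbtb18, listed as Zfp238 and known as a repressor in developing neurons, had 2913 reads in pregnant and 2860 reads in nonpregnant islets. Zbtb14, listed as Zfp161, had 4244 reads in pregnant and 4677 reads in nonpregnant islets. The broad zinc finger class, genes whose symbol is Zfp and a number, takes in the relatives Zfp131, Zfp161, Zfp238, Zfp295 and Zfp651, so these lists overlap. This Zfp class leaned the same way as the Zbtb genes. Of 357 with at least 10 mean reads, 283 lay below 0 (79.3%), 25 fell (7.00%) and 4 rose (1.12%), and their median log2 ratio was -0.15. Among all 15682 genes at that read level, 52.0% lay below 0, 5.27% were lower and 9.54% were higher. Whether the Zbtb genes differed from this class was not tested.

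The corepressors and partners that BTB zinc finger factors work with stayed close to 0 as a list. Of 27 measured IDs for 26 listed genes, 3 rose (11.1%) and 0 fell in the authors' deposited table, against 7.57% higher and 4.15% lower among all genes. Their median log2 ratio was -0.001. The 3 were Myc, Hells and Cdca7. At an unadjusted p under 0.05 in the authors' deposited table, 5 were higher and 0 lower, against 12.4% and 9.78% of all genes. Besides those 3, they were Hdac1 and Mta3 (adjusted p = 0.0834 and 0.187 in the authors' deposited table). Hdac1 had authors' means of 3906 reads in pregnant and 3314 reads in nonpregnant islets. The corepressor Ncor1 had authors' means of 27883 reads in pregnant and 30098 reads in nonpregnant islets, and Bcor had 4814 reads in pregnant and 5545 reads in nonpregnant islets, and neither passed (adjusted p = 0.814 and 0.498 in the authors' deposited table). Cul3, the ubiquitin ligase scaffold that binds BTB proteins, had 15787 reads in pregnant and 16476 reads in nonpregnant islets. Among 3 genes of glucose use known in human cells as targets of ZBTB7A, Slc2a3, a glucose transporter, fell to 281 authors' mean reads in pregnant islets against 436 in nonpregnant islets (adjusted p = 0.00489 in the authors' deposited table), while Pfkp and Pkm did not pass (adjusted p = 0.731 and 0.971).

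**Figure D4:**
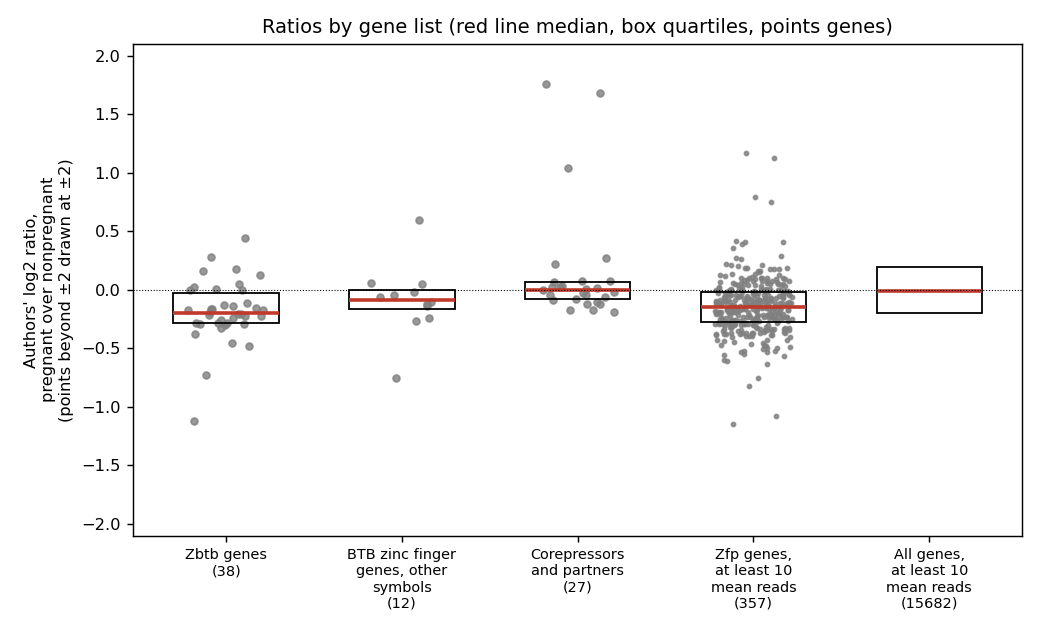
Authors' log2 ratio of pregnant over nonpregnant by gene list, with 1 point per gene (none drawn for all genes), a box for the quartiles and a red line for the median. The medians are -0.20 for 38 Zbtb IDs, -0.08 for 12 relatives, -0.001 for 27 corepressor and partner IDs, -0.15 for 357 Zfp genes and -0.01 for 15682 genes. Relatives with a Zfp symbol are also among the Zfp genes.

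Ratios also varied with exon length, and markers of some other cells differed in level between the groups. The members' exons were long, with a median of 5591 bases, and genes of at least 100 mean reads with exon lengths in the members' middle range, 3877 to 8305 bases, had a median log2 ratio of -0.04. Genes with exons under 2000 bases and at least 100 mean reads had a median log2 ratio of 0.17. Of 20 markers of acinar cells, the enzyme-making cells around islets, 19 rose, and the list took 1.67% of summed mean reads in pregnant and 0.123% in nonpregnant islets, with Amy2a5 listed at 0 in nonpregnant islets. Alpha cell markers took 1.62% in pregnant and 2.41% in nonpregnant islets, and 3 of 7 fell. The part of exon length and of these cells in the ratios of the Zbtb genes was not tested. When the means were scaled to sums without the acinar list and the 5 genes with most reads, the members' median log2 ratio was -0.21.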

How the data were processed

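RNA of islets from 3 pregnant and 3 nonpregnant samples, grouped by their labels, was sequenced with TruSeq transcriptome libraries, per the labels' protocols. TopHat2 2.0.12, TopHat, Bowtie, HTSeq 0.5.3p3 and the build GRCm38 are named in the submitters' processing notes. The authors deposited a rounded mean read value per gene and group, treated here as a score and not as a count of 1 library. They also deposited a linear fold change, its log2 ratio, a p-value and an adjusted p-value; their test, any scaling and the use of strand are not given in the sources used here. What spread these p-values measure is not known.

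The planned edgeR test could not be run on group means, nor could DESeq2, so calls are those of the authors at an adjusted p under 0.05. The table's 19963 lines held 19940 genes. Benjamini-Hochberg values recomputed from the deposited p-values differed by at most 0.00203 and gave 2337 genes under 0.05. The deposited log2 ratio exceeded that of the means by a median of 0.04. Fold changes of low genes are damped by a pseudocount. Recomputed ratios used a pseudocount of 1 or 5.

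Gene IDs were matched to GENCODE M21 on GRCm38 (37 of 38 members), which gave coordinates and exon lengths. Promoter windows came from RefSeq. The depth of single libraries is unknown, so no interval is given. The Benjamini-Hochberg adjustment and the rescaling of means were tested on simulated data, and the other steps were not. Members, lists and the rule for naming genes were chosen with earlier results of these data known. The rule named members past the adjusted or unadjusted threshold, the 5 with most reads, the 5 largest ratios in each direction among those with at least 100 mean reads, and 7 fixed genes; further members are given to account for all. Python 3.11.15 with pandas 2.3.3, numpy 2.4.6, scipy 1.17.1 and matplotlib 3.10.9 was used.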

Additional observations from a re-analysis of the deposited data

How the results depend on the processing

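With 0.01 as the limit on the authors' adjusted p, 1 Zbtb gene was called, with 0 higher and 1 lower. At 0.1 there were 8, and Benjamini-Hochberg adjustment over genes with at least 10 or at least 100 mean reads, or over all genes, gave 6 called, 1 higher and 5 lower, in each case. The median log2 ratio of the members was -0.29 when scaled to summed mean reads, -0.21 when those sums left out the acinar list and the 5 genes with most reads, -0.23 unscaled with a pseudocount of 1 or of 5, and -0.18 for the members with at least 100 mean reads. The median over all genes with at least 10 mean reads was -0.10 with scaling to summed mean reads and -0.01 as deposited. Leaving out Zbtb8os and the second Zbtb20 ID, chosen after seeing the data, kept the median at -0.20. Each scaling shifted members with many reads by nearly the same amount, while the pseudocount also moved IDs with few reads. The second Zbtb20 ID had a log2 ratio of -1.12 as deposited and -0.95 unscaled with a pseudocount of 5. The sign flipped in 4 members under at least 1 scaling, all with deposited log2 ratios close to 0. No paired analysis was possible because the table holds only group means. Leaving out single samples, edgeR and DESeq2 were not run for the same reason.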
